A study of Mus musculus with 14 samples.

Results

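The potassium channel genes of the mouse were taken as the protein-coding genes of the GENCODE M21 annotation (genome build GRCm38) whose symbol begins with Kcn, with Kcnk9 left out, on the autosomes and chromosome X. There were 93 such genes among 21755 protein-coding genes. Each was asked where DMC1 peaks, the footprints of meiotic DNA double-strand breaks (DSBs), fell in it: within 1 kb of any annotated transcript start (called promoter peaks below) or inside the gene and more than 1 kb from all of its starts (body peaks).

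Potassium channels let potassium ions flow down their gradient across the membrane, and so set the resting potential and end action potentials in neurons, muscle and secretory cells. The voltage-gated (Kv) alpha subunits open on depolarization, the calcium- and sodium-activated channels answer to ions inside the cell, the inward rectifiers (Kcnj) and the tandem-pore-domain channels (Kcnk) hold the membrane near rest, and accessory subunits such as Kcne, Kcnmb, Kcnab and Kcnip tune the pores they bind. In meiosis, DMC1 coats the single-strand tails left when DSB ends are resected. In mice DSBs are placed where the zinc fingers of PRDM9 bind, mostly away from promoters, and without PRDM9 activity they gather at promoters and other places with an open, H3K4me3-marked chromatin, many of them rich in CpG dinucleotides. HELLS is a chromatin remodeler of the SNF2 family.

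The DNA bound by DMC1 was recovered from whole testes of adult mice by ChIP and single-strand DNA sequencing (DMC1 ChIP-SSDS). *Hells* CTRL mice carried 1 floxed and 1 deleted *Hells* allele (Hells fl/-) without Cre, and were 5 weeks old, with 2 testes in each replicate. *Hells* cKO mice had the same alleles (Hells fl/-) with the Stra8-Cre transgene, whose Cre is driven by the *Stra8* promoter in male germ cells, and were 9 weeks old, with 3 testes in each replicate, so that genotype and age cannot be told apart. The *Hells* allele came from a C57BL/6N background with the *Prdm9* Dom2 allele. Whole testes hold many cells that are not in meiotic prophase. The paper also reports that HELLS was still present in some *Hells* cKO spermatocytes. Each genotype had 2 replicates, which the authors merged into 1 peak list, so no value below has a spread between mice, no test across mice was possible, and intervals on shares of genes (95%, exact Clopper-Pearson) cover counting error only. Genes are not independent replicates.

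The *Hells* CTRL list held 11133 peaks with strengths from 11 to 5547 (median 63), and the *Hells* cKO list 17117 peaks with strengths from 5 to 3299 (median 31). Strength is the authors' own whole-number score of the DMC1 signal at a peak, and the number of reads behind it is unknown. Per the study's methods, no scaling of the DMC1 signal between genotypes could be computed, so the strength of a peak is also given here as its percentile within its own list. A peak was placed by its center, the midpoint of the deposited interval, and the median widths of these intervals were 1696 bp (*Hells* CTRL) and 1958 bp (*Hells* cKO).

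In *Hells* cKO mice few potassium channel genes had a DSB site at their start. Of the 93 genes, 15 (16.1%, interval 9.32 to 25.2%) had a *Hells* cKO promoter peak, against 9925 of all 21755 protein-coding genes (45.6%). In *Hells* CTRL mice 2 of the 93 (2.15%, interval 0.262 to 7.55%) had a promoter peak, against 2.7% of protein-coding genes. Inside the genes the shares lay above those of all genes, where 24 of the 93 (25.8%, interval 17.3 to 35.9%) had a *Hells* CTRL body peak against 16.4% of protein-coding genes, and 17 (18.3%, interval 11.0 to 27.6%) a *Hells* cKO body peak against 10.3%. In the *Hells* cKO list, 19 of the 47 peaks at potassium channel genes (40.4%) were promoter peaks, whereas the same share over all protein-coding genes was 75.1%.

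A group of 38 potassium channel genes held a peak of either list and 55 (59.1%) held none, while 45.4% of protein-coding genes held none. Peaks of both lists were found in 15 genes, *Hells* CTRL peaks alone in 10 and *Hells* cKO peaks alone in 13 (16.1%, 10.8% and 14%), against 13.9%, 4.48% and 36.3% of all protein-coding genes. The empty genes were 23 of the 40 Kv alpha genes, 12 of the 17 accessory subunits, 3 of the 8 calcium- or sodium-activated channels, 9 of the 15 inward rectifiers and 8 of the 13 tandem-pore-domain channels.

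The 19 *Hells* cKO promoter peaks were mostly of low or middle strength. Their strengths ran from 12 to 179 with a median of 28, and their median percentile was 45.7, below the 64.9 of the 9303 *Hells* cKO promoter peaks of all protein-coding genes, whose median strength was 45. Of the 19 peaks, 9 (47.4%) lay above the 50th percentile, against 66.3% over all protein-coding genes. The centers were 7 to 588 bp from the nearest start (median 230 bp), 10 of them downstream and 9 upstream.

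*Kcnd2*, a pore subunit of the fast-inactivating A-type current in neurons and heart, stood apart with a peak of strength 179, at percentile 95.9, 588 bp downstream of its start. *Kcnj2*, an inward rectifier of heart and skeletal muscle, followed with 63 (percentile 75.4), 230 bp upstream. *Kcnb2*, a delayed rectifier, had a peak of 52 (percentile 69.9) at a start within the gene. The other 16 peaks had strengths of 39 or less.

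*Kcnc2*, a channel of fast-spiking neurons, had a peak of 39 at its 5′ start and a second of 35 at an internal start. *Kcnj10*, the inward rectifier of glial cells, had a peak of 39, and *Kcnmb4*, the beta subunit that modulates the large-conductance calcium-activated channel in brain, and *Kcnh7*, of the ether-a-go-go-related channels, each had a peak of 35. *Kcnk5*, an alkaline-activated tandem-pore-domain channel, had a peak of 32, and *Kcnt2*, a sodium-activated channel, a peak of 28 that lay 477 bp upstream of its start. These 6 genes had percentiles from 45.7 to 59.6.

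*Kcnip4* and *Kcnip2* encode calcium-binding proteins that bind Kcnd channels. *Kcnip4* had 3 promoter peaks, each at a different start, of strengths 25, 18 and 13, and *Kcnip2* had 2, of 19 and 14. The silent subunits *Kcng3*, *Kcnv1* and *Kcng1*, which form no channel alone and assemble with Kcnb subunits, had peaks of 18, 15 and 12, and *Kcnd1*, on chromosome X, had a peak of 15. All of these lay at or below percentile 40.7.

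The 582 *Hells* CTRL promoter peaks of all protein-coding genes had a median strength of 54 (percentile 44.5), and the 2 of potassium channel genes lay at or below it. *Kcnip4* had one of strength 54 (percentile 44.5), 177 bp from the start at which *Hells* cKO had a peak of 18. *Kcnk5* had one of strength 42 (percentile 35.0), 393 bp upstream of a start, and its center was 495 bp from that of the *Hells* cKO peak. Under the rule that 2 peaks are common when their centers are no more than 400 bp apart, the *Kcnip4* peaks were common and the *Kcnk5* peaks were not.

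**Figure D1:**
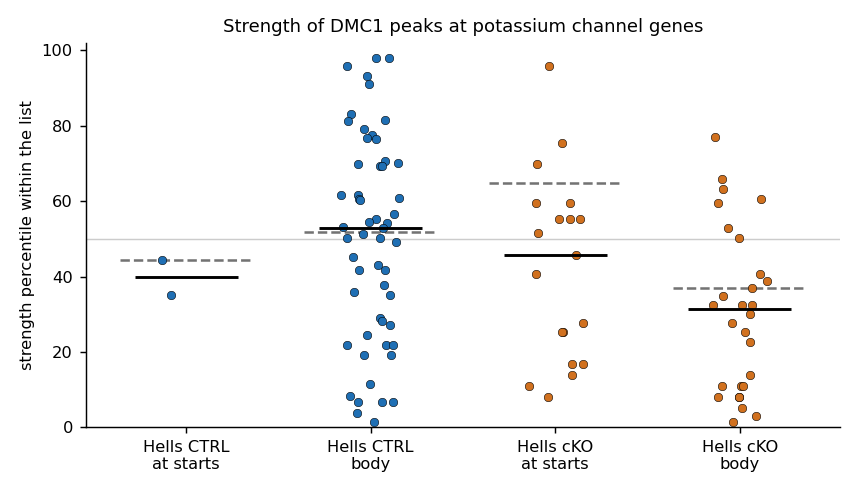
Strength percentile within its own list (vertical axis) of each DMC1 peak at potassium channel genes, by list and place. Blue points are *Hells* CTRL peaks and orange points *Hells* cKO peaks, spread sideways only to be seen apart, the black line is their median, and the dashed line is the median over all protein-coding genes, which lies above the black line for *Hells* cKO promoter peaks (64.9 against 45.7).

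The reach of 1 kb decided few of these genes. The promoter peaks farthest from a start were those of *Kcnd2* (588 bp), *Kcng1* (563 bp) and *Kcnip4* (502 bp), and the *Hells* cKO peaks just beyond it were at *Kcnj16* (1085 bp), *Kcnk13* (1204 bp) and *Kcnu1* (1325 bp). Over the 78 genes without a *Hells* cKO promoter peak, the nearest *Hells* cKO peak was at a median distance of 45.5 kb from a start (quartiles 14.8 and 115 kb), and for 63 of them it was over 10 kb away. It was farthest from *Kcnj15*, an inward rectifier, at 533 kb. These distances were not computed over all protein-coding genes without a promoter peak, so they have no background here.

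The shortage at starts was found among the genes with CpG-rich starts. CpG dinucleotides were counted within 250 bp of each start, and the start with most CpG stood for the gene. The potassium channel genes were not poor in CpG: their median was 36, against 32 over all protein-coding genes. Of the 51 potassium channel genes with 30 or more CpG, 9 (17.6%, interval 8.40 to 30.9%) had a *Hells* cKO promoter peak, against 71.6% of the 11501 protein-coding genes with as many. Of the 42 with fewer than 30, 6 (14.3%, interval 5.43 to 28.5%) had one, against 16.5%.

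Over all protein-coding genes the share climbed with CpG, from 1.33% at 0 to 9 CpG through 21.7% at 10 to 19, 50.1% at 20 to 29 and 66.3% at 30 to 39 to 73.5% at 40 and over. In the same classes, the potassium channel genes gave 0 of 13 (which allows a share of up to 24.7% at the same confidence), 3 of 18, 3 of 11, 2 of 9 and 7 of 42 (16.7%, interval 6.97 to 31.4%). In the classes of 30 to 39 CpG and of 40 and over the interval ended below the share of all genes, and in the other 3 classes it held that share. If every class of potassium channel genes had the share of all protein-coding genes in that class, 46.4 of the 93 (49.9%) would have had a peak. With classes of gene length added it was 49.8%.

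**Figure D2:**
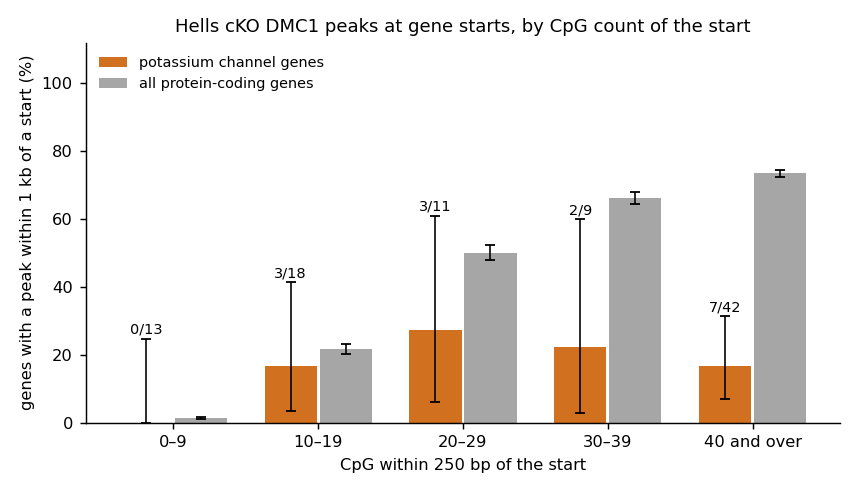
Percent of genes with a *Hells* cKO DMC1 peak within 1 kb of a start (vertical axis) by the CpG count within 250 bp of the start (horizontal axis), for potassium channel genes (orange) and all protein-coding genes (grey). Error bars are exact 95% intervals for counting error, and the fractions give potassium channel genes with a peak over genes in the class, which reach 7 of 42 in the class of 40 and over, where the grey bar stands at 73.5%.

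Across genes, the Spearman correlation of CpG count with the number of *Hells* cKO promoter peaks was 0.049 over the 93 potassium channel genes and 0.574 over the 21755 protein-coding genes, given as a description since genes are not replicates. Potassium channel genes with and without a *Hells* cKO promoter peak had median CpG counts of 38 and 34.5. Over all protein-coding genes these medians were 45 and 11. Among the potassium channel genes *Kcnab2* alone had the start of another protein-coding gene (*Nphp4*) within 1 kb of its own, and it had no peak. Over protein-coding genes with no such neighbour and 30 or more CpG, the share was 68.8%, against 9 of 50 (18%) for potassium channel genes.

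To show what these starts look like, the 200 bases before the start are printed 5′ to 3′ on the strand of the gene (build GRCm38) for 3 genes with a *Hells* cKO promoter peak and for 1 with more CG and none. Capitals mark each CG, which reads the same on both strands. A median of 11 CG was found in the 200 bases before the start of protein-coding genes (92.8% held at least 1), and a median of 14 before that of potassium channel genes, 14 for the 15 with a peak and 13 for the 78 without.
*Kcnd2*, chr6:21215303-21215502, plus strand, peak of strength 179, 18 CG: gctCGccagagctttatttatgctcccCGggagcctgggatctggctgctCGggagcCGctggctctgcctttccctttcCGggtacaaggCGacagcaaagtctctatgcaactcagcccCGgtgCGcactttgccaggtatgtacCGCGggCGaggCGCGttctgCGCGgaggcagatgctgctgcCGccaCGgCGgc
*Kcnj2*, chr11:111065964-111066163, plus strand, peak of strength 63, 14 CG: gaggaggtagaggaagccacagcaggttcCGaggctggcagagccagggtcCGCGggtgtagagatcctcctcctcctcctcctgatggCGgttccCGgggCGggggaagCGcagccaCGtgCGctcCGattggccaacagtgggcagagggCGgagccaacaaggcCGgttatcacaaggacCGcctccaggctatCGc
*Kcng3*, chr17:83631896-83632095, minus strand, peak of strength 18, 33 CG: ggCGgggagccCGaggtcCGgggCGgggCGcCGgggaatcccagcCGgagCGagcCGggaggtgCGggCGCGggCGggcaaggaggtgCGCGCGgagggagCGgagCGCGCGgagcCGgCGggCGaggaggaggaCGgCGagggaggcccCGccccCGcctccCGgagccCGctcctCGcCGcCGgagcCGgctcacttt
*Kcnh2*, chr5:24351605-24351804, minus strand, no peak, 34 CG: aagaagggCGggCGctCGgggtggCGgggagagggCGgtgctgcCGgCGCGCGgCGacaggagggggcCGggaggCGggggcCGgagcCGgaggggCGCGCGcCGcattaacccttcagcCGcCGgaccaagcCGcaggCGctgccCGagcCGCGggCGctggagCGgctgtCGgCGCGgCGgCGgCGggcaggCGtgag
Of the printed starts, those of *Kcnd2* and *Kcnj2*, with the strongest peaks, held fewer CG than those of *Kcng3* and *Kcnh2*. *Kcnh2* carries a repolarizing current of the heart. *Kcng3* and *Kcnh2* were extremes, since 33 was the most CG among the 15 genes with a peak and 34 among the 78 without. *Kcnd2* lay above the median of 14 of potassium channel genes and *Kcnj2* at it. For genes with a *Hells* cKO promoter peak, CpG count within 250 bp was also set against the strength of the strongest peak. The Spearman correlation was -0.218 over 15 potassium channel genes and 0.268 over 9925 protein-coding genes. With CpG counted within 500 bp it was 0.0215 and 0.325, and with CpG at the 5′-most start 0.157 and 0.223. The sign over the 15 genes thus changed with the way CpG was counted.

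The 42 potassium channel genes with 30 or more CpG and no *Hells* cKO promoter peak came from every family. Among Kv alpha genes there were 23. They included *Kcna1*, *Kcna2*, *Kcna3* and *Kcna6* of the Shaker type, *Kcnc1*, *Kcnc4* and *Kcnd3* of the delayed rectifier and A types, *Kcng2*, *Kcns1*, *Kcns2* and *Kcns3* among the silent subunits, *Kcnh1*, *Kcnh2*, *Kcnh3*, *Kcnh4* and *Kcnh8* of the ether-a-go-go group, and *Kcnq1*, *Kcnq3* and *Kcnq5*, which carry slow currents of heart and neurons.

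Among accessory genes there were 3 with 46 to 49 CpG (*Kcnab2*, *Kcnip1* and *Kcnip3*), and among the calcium- or sodium-activated channels 4 with 42 to 71 (*Kcnma1*, *Kcnn1*, *Kcnn2* and *Kcnt1*). The inward rectifiers gave 5 with 33 to 67 (*Kcnj4*, *Kcnj6*, *Kcnj8*, *Kcnj11* and *Kcnj12*), of which *Kcnj8* and *Kcnj11* encode the pores of ATP-sensitive channels. The tandem-pore-domain channels gave 7 with 37 to 65 (*Kcnk1*, *Kcnk2*, *Kcnk3*, *Kcnk6*, *Kcnk10*, *Kcnk12* and *Kcnk15*). For 40 of the 42 genes the nearest *Hells* cKO peak was over 10 kb from a start, and the median distance was 72.7 kb. For the 36 genes with fewer than 30 CpG and no *Hells* cKO promoter peak, these values were 23 genes and 23.0 kb. Neither was computed over all protein-coding genes. None of the 13 potassium channel genes with fewer than 10 CpG had a *Hells* cKO promoter peak, against 1.33% of all protein-coding genes with as few.

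By family, a *Hells* cKO promoter peak was found at 8 of 40 Kv alpha genes, where the shares of all protein-coding genes in the same CpG classes would give 23.1, and at 1 of 13 tandem-pore-domain genes, where they would give 6.77. It was found at 3 of 17 accessory genes against 6.48, at 2 of 15 inward rectifiers against 5.97 and at 1 of 8 calcium- or sodium-activated channels against 4.09. The count of every family lay below its value. No interval was computed by family, and families of 8 to 17 genes leave a wide counting error. Among genes with 30 or more CpG the families ran from 0 of 4 calcium- or sodium-activated channels to 3 of 6 accessory genes, and the families were not tested against each other.

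Body peaks of *Hells* CTRL followed the length of the gene. Potassium channel genes were longer than others, with a median annotated length of 29.6 kb against 17.4 kb. None of the 23 genes under 10 kb and none of the 24 genes of 10 to 30 kb had a *Hells* CTRL body peak, which allows shares of up to 14.8% and 14.2%, against 1.30% and 7.16% of all protein-coding genes. A peak was found in 5 of 23 genes of 30 to 100 kb (21.7%, against 25.9%), 7 of 10 of 100 to 300 kb (70%, against 60.7%) and 12 of 13 of 300 kb and over (92.3%, against 88.7%). Each of these shares had an interval that held the share of all genes. At the shares of all protein-coding genes in the same length classes, 25.6 of the 93 genes (27.5%) would have had a *Hells* CTRL body peak, close to the 24 observed.

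Per megabase of gene, *Hells* CTRL body peaks stood at 5.31 per Mb in potassium channel genes (55 peaks in 10.4 Mb) and at 5.11 per Mb in all protein-coding genes. *Hells* cKO body peaks stood at 2.70 per Mb against 2.96. The Spearman correlation of gene length with the number of *Hells* CTRL body peaks was 0.67 over the 93 genes and 0.49 over all protein-coding genes. Genes with a *Hells* CTRL body peak had a median length of 274.7 kb and those without one 16.4 kb. For *Hells* cKO body peaks the correlation with length was 0.43, and the length classes of all genes would give 16.6 genes where 17 were found.

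**Figure D3:**
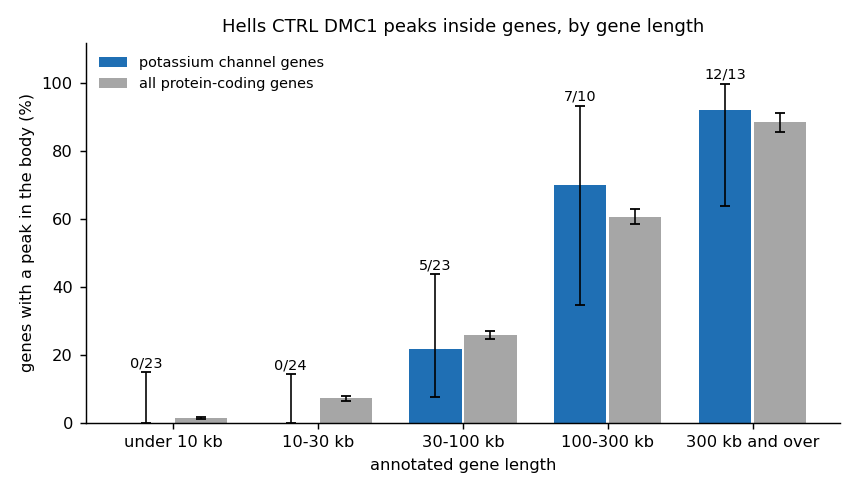
Percent of genes with a *Hells* CTRL DMC1 peak in the body, more than 1 kb from every start of the gene (vertical axis), by annotated gene length (horizontal axis), for potassium channel genes (blue) and all protein-coding genes (grey). Error bars are exact 95% intervals for counting error, and the fractions, from 0 of 23 to 12 of 13, climb beside the grey bars.

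The 55 *Hells* CTRL body peaks had strengths from 16 to 853 with a median of 69, and a median percentile of 52.8, against 51.7 over the *Hells* CTRL body peaks of all protein-coding genes. They lay in introns in 54 cases, and their centers held few CpG (a median of 3 within 250 bp, against 4 over all genes). The strongest was in *Kcnk10*, a mechanically gated tandem-pore-domain channel, with strength 853 (percentile 98.0), 18.9 kb from the nearest start. *Kcnq5*, a channel of the M-current, held the next strongest, with 840 and 554 (percentiles 98.0 and 95.7). *Kcnd2* had peaks of 423 and 229, and *Kcnj16*, an inward rectifier that pairs with Kcnj10 in glia and kidney, had a peak of 361.

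Below these, *Kcng3* had a body peak of 211, *Kcnip4* one of 208 and *Kcnd3*, another A-type subunit, one of 187. *Kcnma1*, the pore of the large-conductance calcium-activated channel, had peaks of 174 and 168 and *Kcnj6*, a G-protein-gated inward rectifier, one of 166, while *Kcnj10* had 130. Genes with the most *Hells* CTRL body peaks were long: *Kcnma1* (725 kb) had 7, *Kcnq5* (564 kb) 6, *Kcnip4* (1135 kb) and *Kcnk2* (194 kb) 5 each, and *Kcnh7* and *Kcnq1* 3 each. *Kcnk2*, which like *Kcnk10* encodes a mechanically gated channel, was the shortest of these, and its 5 peaks had strengths of 124, 52, 45, 21 and 16. The peak of 52 lay 883 bp from a start of *2900042K21Rik*, a gene annotated as sense-overlapping. It was the only 1 of the 55 within 1 kb of a start of another annotated gene.

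All 15 potassium channel genes of 100 kb and over with 30 or more CpG had a *Hells* CTRL body peak, against 68.9% of the 1813 such protein-coding genes. The interval on 15 of 15 begins at 78.2%. These 15 genes were also longer, with a median of 364 kb against 169.6 kb, and such protein-coding genes in the same length classes would give 82.6%, a share that the interval holds. The 4 genes of 100 kb and over without one had fewer CpG, from 14 to 26: *Kcnab1*, *Kcnh5*, *Kcnmb2* and *Kcnt2*. *Kcnc2* (16 CpG), *Kcnn3* (17), *Kcnb2* (24) and *Kcnj3* (25), also of 100 kb and over, did have one. They were 195.9, 155.0, 436.5 and 162.2 kb long, and the 4 genes without one 268.8 to 365.9 kb. The 5 genes under 100 kb with one were *Kcna6*, *Kcng3*, *Kcnj10*, *Kcnj16* and *Kcnk12*, which were 32.3 to 59.9 kb long. Among the 13 genes of 300 kb and over, which also include *Kcnb2*, *Kcnh1*, *Kcnh8*, *Kcnip1*, *Kcnn2* and *Kcnq3*, *Kcnt2* alone had no *Hells* CTRL body peak.

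**Figure D4:**
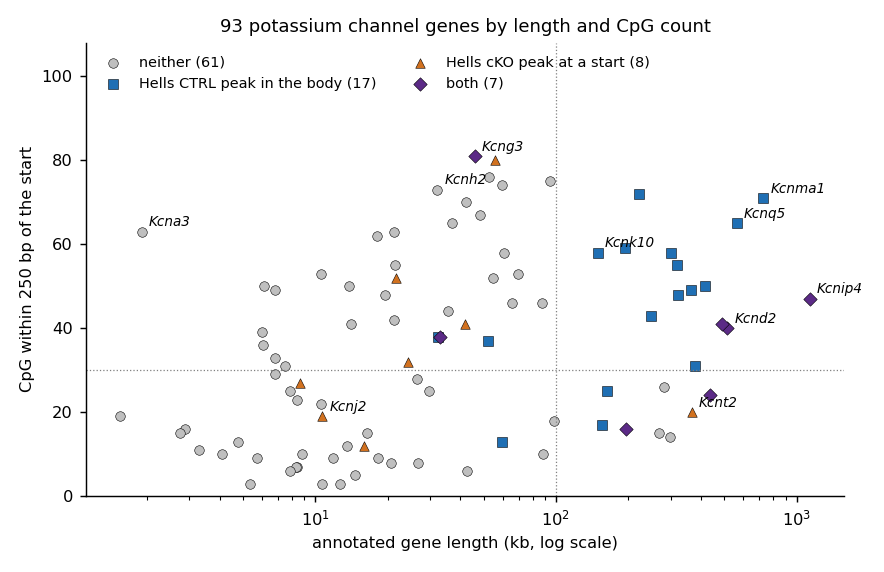
The 93 potassium channel genes by annotated gene length (horizontal log axis, kb) and CpG count within 250 bp of the start (vertical axis), marked by whether they had a *Hells* CTRL body peak, a *Hells* cKO promoter peak, both or neither. Dotted lines are drawn at 100 kb and 30 CpG. *Hells* CTRL body peaks (17 blue squares and 7 purple diamonds) mark 24 genes, of which 15 lie at 100 kb and over with 30 or more CpG, and the 15 genes with a *Hells* cKO promoter peak (triangles and diamonds) are scattered from 12 to 81 CpG.

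Words of 8 bases were learned from the *Hells* CTRL peaks outside these genes, among words found at 100 or more centers. Kept were the 20 with the largest ratio of peaks holding the word no more than 100 bp from their center to peaks holding it in flanking windows 1000 bp away. Read on either strand, they were GGTGCTAC, GATGCTAC, GCAGCACC, GATGCTGC, GCTACTAC, GATACTAC, GCAGTAGC, GGTACTAC, GCTGCTAC, GAAGCTAC, GCAGCAGC, GGTGTTAC, GATACTGC, GCTGCCAC, AGTAGCAC, GGGTAGTA, AGCAGCAT, CTACTACC, CTACTGCC and TGCTACCA. Many of them overlap each other, so that 1 stretch can hold several. At least 1 word was found at 17 of the 55 *Hells* CTRL body peaks of potassium channel genes (30.9%, interval 19.1 to 44.8%) and at 36.7% of the 11076 other *Hells* CTRL peaks. In windows 1000 bp away it was found in 6.36% and 8.24%. The words were picked for this contrast in the other peaks, so 36.7% against 8.24% is no independent result. At *Hells* cKO peaks of potassium channel genes it was found at 3 of 19 promoter peaks and 4 of 28 body peaks, against 14.2% and 16.1% of the *Hells* cKO promoter and body peaks of all protein-coding genes.

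The central 151 bases of 4 *Hells* CTRL body peaks are printed on the plus strand (GRCm38), with capitals for the words, to show how they lie at strong and weaker peaks. All 4 are intronic.
*Kcnk10*, chr12:98555704-98555854, strength 853: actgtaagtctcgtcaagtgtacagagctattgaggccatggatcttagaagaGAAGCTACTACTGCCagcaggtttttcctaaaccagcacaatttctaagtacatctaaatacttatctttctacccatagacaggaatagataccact
*Kcnd3*, chr3:105499454-105499604, strength 187: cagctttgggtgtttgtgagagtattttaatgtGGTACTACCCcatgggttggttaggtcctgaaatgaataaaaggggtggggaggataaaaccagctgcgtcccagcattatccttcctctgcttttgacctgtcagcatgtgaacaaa
*Kcnb2*, chr1:15489971-15490121, strength 124: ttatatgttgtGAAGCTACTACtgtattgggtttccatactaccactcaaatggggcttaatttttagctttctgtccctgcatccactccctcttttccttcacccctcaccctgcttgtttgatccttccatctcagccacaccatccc
*Kcnq5*, chr1:21621456-21621606, strength 840: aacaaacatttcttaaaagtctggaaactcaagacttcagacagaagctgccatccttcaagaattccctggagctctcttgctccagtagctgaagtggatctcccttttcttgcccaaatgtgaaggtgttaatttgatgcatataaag
In *Kcnk10* a run of 15 bases joined 3 of the words, and *Kcnb2* held 11 bases of the same run (GAAGCTACTAC). The strong peak of *Kcnq5* held none of the 20 words within 100 bp, which says only that these letters were absent from the window.

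The *Hells* cKO body peaks of potassium channel genes stood low within their own list. The 28 peaks had strengths from 9 to 67 with a median of 20.5 and a median percentile of 31.3, against 37.0 over all protein-coding genes. They lay in introns in 18 cases and in exons in 10, with a median of 14.5 CpG within 250 bp of the center (15 over all genes). *Kcnk2* had the strongest, of 67, with others of 21 and 11. *Kcnq5* had 4, of 46, 31, 25 and 19, and *Kcnmb4* had 3, of 43, 21 and 13. The *Kcnmb4* peak of 13 lay 203 bp from a start of the antisense gene *Kcnmb4os1*. It was the only 1 of the 28 within 1 kb of a start of another annotated gene. *Kcna4*, a Shaker-type channel, had a peak of 40 in its coding exon, *Kcnk13* a peak of 39 and another of 10, and *Kcnq1*, a cardiac and epithelial channel, a peak of 33.

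*Kcnu1* encodes the alkaline-activated channel of sperm. It had 10 CpG at its start, no *Hells* CTRL peak and 2 *Hells* cKO body peaks, of strengths 17 and 9 (percentiles 22.5 and 1.41), the first 1325 bp from a start. Its nearest *Hells* CTRL peak was 177.5 kb from a start.

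Few peaks were common to both lists. Of the 57 *Hells* CTRL peaks at potassium channel genes, 7 (12.3%, interval 5.08 to 23.7%) were common with a *Hells* cKO peak, against 10.1% of the whole *Hells* CTRL list. They were the strongest peak of *Kcnk10* (853, with 22 in *Hells* cKO), the 2 strongest of *Kcnq5* (840 with 25, and 554 with 19), the peak of *Kcnj16* (361 with 13), 2 of *Kcnk2* (52 with 11, and 45 with 67) and the promoter peak of *Kcnip4* (54 with 18). In the *Hells* cKO list the partners of *Kcnk10*, *Kcnq5* and *Kcnj16* stood at percentiles from 10.9 to 40.7, against 91.0 to 98.0 in *Hells* CTRL. Whether these *Hells* cKO peaks came from spermatocytes that still held HELLS was not tested. At the *Kcnk2* site of strength 45 the order was turned, with percentile 37.7 in *Hells* CTRL and 76.9 in *Hells* cKO, and this site held 17 CpG within 250 bp of the *Hells* CTRL center, the most of the 55 body peaks.

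**Figure D5:**
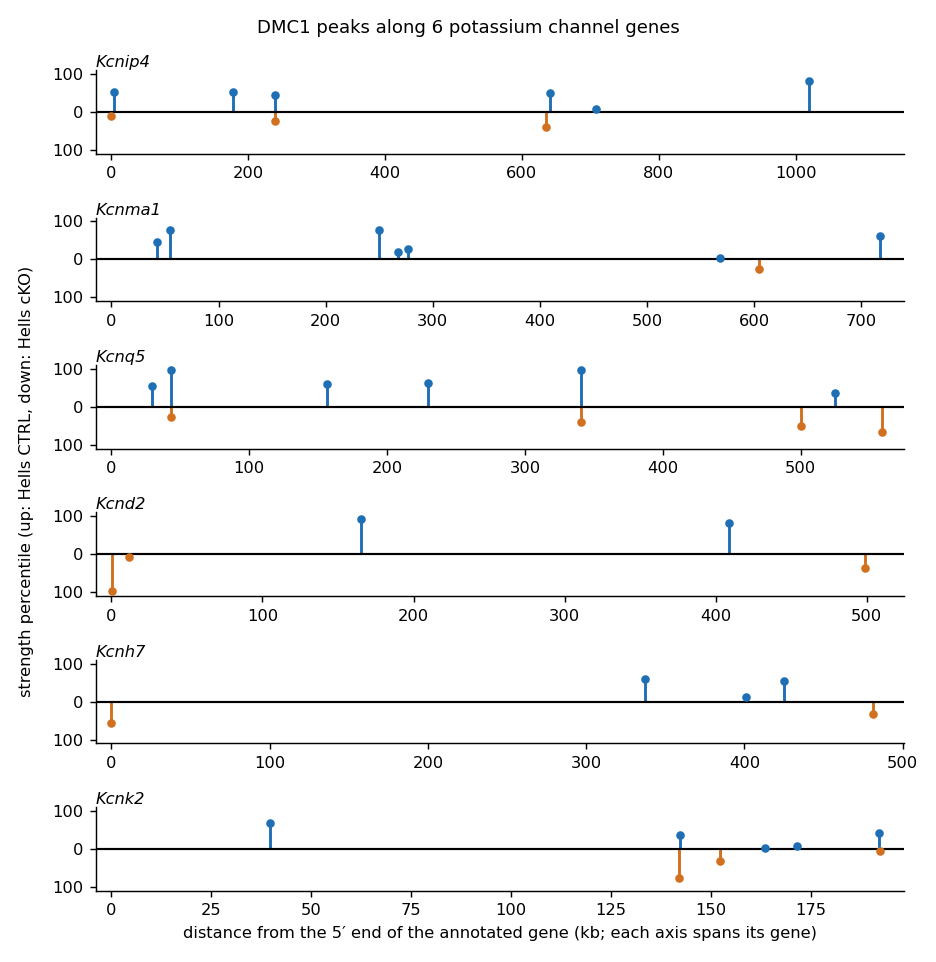
DMC1 peaks along 6 potassium channel genes, by distance from the 5′ end of the annotated gene (horizontal axes, kb, each spanning its own gene) and strength percentile within the list (vertical axes), with *Hells* CTRL upward in blue and *Hells* cKO downward in orange. In *Kcnd2* the peak at the start is downward, at percentile 95.9, and the upward peaks stand 165 kb and 409 kb from the 5′ end, and in *Kcnq5* both tall upward peaks have a short downward partner.

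The gene with the strongest *Hells* cKO promoter peak, *Kcnd2*, also shows how the lists divided a long gene. Its *Hells* CTRL peaks of 423 and 229 lay 165 kb and 409 kb from the nearest start with the nearest *Hells* cKO peaks 153.6 kb and 90.04 kb away, and *Hells* cKO peaks of 179, 12 and 23 lay near the start, 11.5 kb and 499 kb from the 5′ end. In all, 7 genes had both a *Hells* CTRL body peak and a *Hells* cKO promoter peak (*Kcnb2*, *Kcnc2*, *Kcnd2*, *Kcng3*, *Kcnh7*, *Kcnip4* and *Kcnj10*), 17 had the first without the second and 8 the second without the first. These were 7.53%, 18.3% and 8.60% of the 93 genes, against 10.5%, 5.88% and 35.1% of all protein-coding genes.

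Other ion channel genes were set beside these. Of 53 genes for sodium, calcium, Hcn and chloride channels, 19 (35.8%, interval 23.1 to 50.2%) had a *Hells* cKO promoter peak, where the shares of all protein-coding genes in their CpG classes would give 29.3. Calcium channels had one at 7 of 26 genes against 16.3, and sodium channels at 4 of 14 against 5.43, Hcn channels at 2 of 4 against 2.94 and chloride channels of the Clcn family at 6 of 9 against 4.65. Of the 53, 34 had 30 or more CpG, and 16 of these (47.1%) had a *Hells* cKO promoter peak, against 9 of 51 potassium channel genes. By set these were 1 of 5 sodium, 7 of 19 calcium, 2 of 4 Hcn and 6 of 6 chloride channel genes. Of 10 genes whose products bind potassium channels (*Abcc8*, *Abcc9*, *Amigo1*, *Cntnap2*, *Dpp6*, *Dpp10*, *Lrrc26*, *Lrrc38*, *Lrrc52* and *Lrrc55*), 2 had one, *Amigo1* with strength 69 and *Cntnap2* with a strongest peak of 96, where the CpG classes would give 4.70. These differences between sets of genes were not tested.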

How the data were processed

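DMC1 ChIP-SSDS reads were, per the study's methods, trimmed to 50 bp, filtered at a Phred score above 28, mapped to GRCm38/mm10 and kept when unique and not duplicated. MACS2 peaks were ranked on pooled replicates and cut by the Irreproducible Discovery Rate method. The deposited value of each peak is a strength score, described by the authors as a fragment count normalized to local background and then to library size. All scores were whole numbers, so whether the library-size step is included is not known, and depth per sample is not given in the lists. The 5hMeDIP libraries were not analysed here.

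Peaks were placed by center against GENCODE M21 genes and transcript starts, and sequence was read from GRCm38.p6. Percentiles are mean ranks within a list. Intervals are Clopper-Pearson at 95%. No model or test across genes was fitted. Genes were named by rule: the 10 strongest *Hells* cKO promoter and *Hells* CTRL body peaks, all *Hells* CTRL promoter and common peaks, the 5 genes with most body peaks of each list, genes over 300 kb, genes with 30 or more CpG and no *Hells* cKO promoter peak, and *Kcnu1*. Other genes were named after their values were seen. Some genes that the rule takes in are not reported here. The genes, the comparison lists and the classes were chosen with earlier results of these data known. Alternatives changed the reach, starts, overlap rule, strength, chromosomes, CpG window, length and words. Peak placement and word ranking were tested on simulated peaks and sequence. The code ran on Python 3.11.15, with pandas 2.3.3 and numpy 2.4.6 for tables, scipy 1.17.1 for intervals and matplotlib 3.10.9 for plots.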

Additional observations from a re-analysis of the deposited data

How the results depend on the processing

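Of 36 changed settings for shares, 30 left the share inside the exact 95% interval of the reported share. The median percentiles ran from 43.2 to 48.7 for *Hells* cKO promoter peaks and from 52.8 to 53.0 for *Hells* CTRL body peaks, and the correlation with gene length from 0.58 to 0.67 and that of CpG count with *Hells* cKO promoter peaks from 0.05 to 0.18. Keeping only peaks at or above the median strength of their list lowered the shares, since fewer peaks were counted. The *Hells* cKO promoter share of potassium channel genes moved from 16.1 to 8.60% (31.3% of all protein-coding genes). The *Hells* CTRL promoter share moved from 2.15 to 0% (1.19%) and the *Hells* cKO body share from 18.3 to 6.45% (4.19%). Among potassium channel genes of 100 kb and over, the share with a *Hells* CTRL body peak moved from 82.6 to 60.9%. For that share the value over all protein-coding genes was not computed with this filter. The share of *Hells* CTRL body peaks with a word was 45.5% with 50 words (51.5% of other peaks) and 52.7% within 250 bp (54.7%). With 10 words it was 29.1%, against 26.7% of other peaks, so that the order of the shares turned. These 3 settings for words were chosen after seeing the data.

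A *Hells* cKO promoter peak was found for 13 of 93 genes with a reach of 500 bp and for 18 with 2000 bp, against 42.4% and 46.8% of all protein-coding genes. With CpG counted at the 5′-most start, 8 of 34 genes with 30 or more CpG (23.5%) had a peak. The share of all protein-coding genes was not computed under this count, so this value has no background. No paired analysis was possible because the replicates of each genotype were merged into 1 list, and for the same reason no replicate could be left out. Depth behind a strength is unknown, and a gene without a peak may hold DSBs below the threshold of the list.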
